A study of Danio rerio with 14 samples.

Results

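Fatty acid oxidation was followed through 9 genes of the 21125 that the array annotation named, in the liver of zebrafish that differed in genotype and diet. The genes were chosen as enzymes of mitochondrial and peroxisomal oxidation, and for each the probe set named with that symbol alone was taken (the one with the highest mean over the arrays where a gene had several). They were cpt1ab, cpt2, crata, acadm, acadvl, hadhaa, hadhb, ehhadh and acox3, and all 9 were measured on all 14 arrays. No filter on low values was applied.

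Liver RNA was read on ZebGene 1.1 ST arrays after 8 weeks of feeding, which began at 3 months of age and combined 4 genotypes with 3 feeding methods. The AB strain served as WT. The line HBx(p53-) expressed HBx, a viral regulator of transcription from hepatitis B, and Src(p53-) expressed the kinase Src. The line with both transgenes was HBx,Src(p53-). The transgenes were driven by fabp10a, a promoter active in hepatocytes, and every transgenic fish carried the p53 mutation that WT fish did not, so transgene and p53 mutation cannot be told apart in a comparison of a line with WT. Normal diet fish (NOR) received 0.5 mL of Artemia, a brine shrimp, 1 time a day. Overfeeding (DIO) meant 3 daily feeds of 2 mL, a 12-fold amount. High fat fish (FAT) kept to the NOR amount of Artemia and took 0.22 g of a high fat food 3 times a day. By diet, 6 arrays were NOR, 5 were DIO and 3 were FAT. The 3 groups with 2 arrays were WT NOR and both diets of HBx,Src(p53-), whose arrays are called sample 1 and sample 2. Each of the other 8 groups was 1 array, and HBx,Src(p53-) had no FAT array. No sex is given for the arrays, while the study used fish of both sexes and reported marker responses that differed between females and males. Sex could therefore not be modelled, and a difference by sex cannot be told apart from one by genotype or diet. All values are log2 expression levels, so a difference of 1 is a 2-fold difference, and levels of different probe sets cannot be set against each other.

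Beta-oxidation shortens a fatty acid by repeated cycles of dehydrogenation, hydration, a second dehydrogenation and thiolytic cleavage. Long-chain fatty acids enter the mitochondrion as carnitine esters, a step that malonyl-CoA, the product of acetyl-CoA carboxylase, blocks while fat is being made. Peroxisomes run a related cycle on substrates such as very long and branched chains, and in the liver both routes are known to be switched on in fasting through the receptor PPAR alpha.

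The arrays resembled each other, with correlations across genes of 0.924 to 0.968 and array medians of 2.1 to 2.23. Hepatocyte markers were high on every array, their mean level over 14 genes lying between 11.42 and 12.26. Under normal diet 12 of 14 were higher than WT in HBx(p53-) (median +0.32), beside 48.1% of all genes. In Src(p53-) 14 of 14 were (+0.23), beside 50.1%, and in HBx,Src(p53-) 12 of 14 (+0.24), beside 56.5%. The part of these markers in the results was not tested. The src level lay between 4.23 and 6.01 in the Src-carrying lines and between 2.57 and 4.59 in the other lines, with overlap. Exocrine pancreas markers (14 of 18 measured) differed by genotype, with mean levels of 4.23 to 5.32 in WT and 6.16 to 8.25 in HBx(p53-). Src(p53-) arrays ran from 4.47 to 6.02 and HBx,Src(p53-) arrays from 5.98 to 7.19. In whole liver RNA, fewer cells of a type and less RNA per cell cannot be told apart.

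No oxidation gene passed the test in any comparison. Over the 10 comparisons of the design the lowest adjusted p of a member was 0.31 (limma, Benjamini-Hochberg over all genes), and 11 of the 90 gene-by-comparison tests had an unadjusted p under 0.05, beside 6.19% of such tests over all genes. Standard errors of the log2 changes ran from 0.24 to 1.03, so differences near 2-fold in a single gene were often not detectable with this number of arrays. The 9 genes were brighter than most, with mean levels above those of 73.1% (cpt2) to 98.4% (hadhb) of all genes. The shares over all genes given below include many dim probe sets, whose differences are shrunk. They are not matched by level to the genes described, so a higher share among these is not read as enrichment. What follows gives the levels and the direction of the differences. Any difference named below without a statement that it passed did not pass.

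The entry of long-chain fatty acids is led by cpt1ab, a carnitine palmitoyltransferase 1 of the outer mitochondrial membrane and the step that malonyl-CoA inhibits. Its level in WT was 7.17 and 5.62 in NOR samples 1 and 2, 7.36 in DIO and 5.97 in FAT. In HBx(p53-) it was 8.76 in NOR, 8.52 in DIO and 7.60 in FAT. In Src(p53-) it was 6.49 in NOR, 8.84 in DIO and 6.67 in FAT. Arrays of HBx,Src(p53-) had 5.88 and 7.30 in NOR samples 1 and 2, and 6.86 and 7.52 in DIO. All 3 HBx(p53-) arrays lay above all WT arrays and above all HBx,Src(p53-) arrays, while the highest value of all belonged to the overfed Src(p53-) array. Its range over the arrays, 3.22, was the widest of the 9 genes.

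The partner on the inner membrane, cpt2, which returns the acyl group from carnitine to CoA, behaved differently from the rest. Its level was 4.90, 5.61, 5.05 and 5.44 in WT (NOR samples 1 and 2, DIO, FAT) and 4.73, 5.47 and 4.52 in HBx(p53-) (NOR, DIO, FAT). It was 5.66, 5.17 and 5.36 in Src(p53-). With both transgenes it was 5.53 and 6.10 in NOR against 5.20 and 4.59 in DIO. The genotypes overlapped, and in HBx,Src(p53-) both DIO arrays lay below both NOR arrays.

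Carnitine acetyltransferase, crata, which moves short acyl groups between CoA and carnitine, was the other gene of the carnitine system with a wide range. It stood at 7.40, 6.17, 6.52 and 6.94 in WT and at 7.75, 7.83 and 7.43 in HBx(p53-), where every array exceeded every WT array. In Src(p53-) it was 5.71 in NOR, the lowest of all arrays, 7.95 in DIO, the highest, and 7.03 in FAT. The order was the reverse in HBx,Src(p53-), with 6.93 and 7.82 in NOR and 5.77 and 6.26 in DIO.

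**Figure D1:**
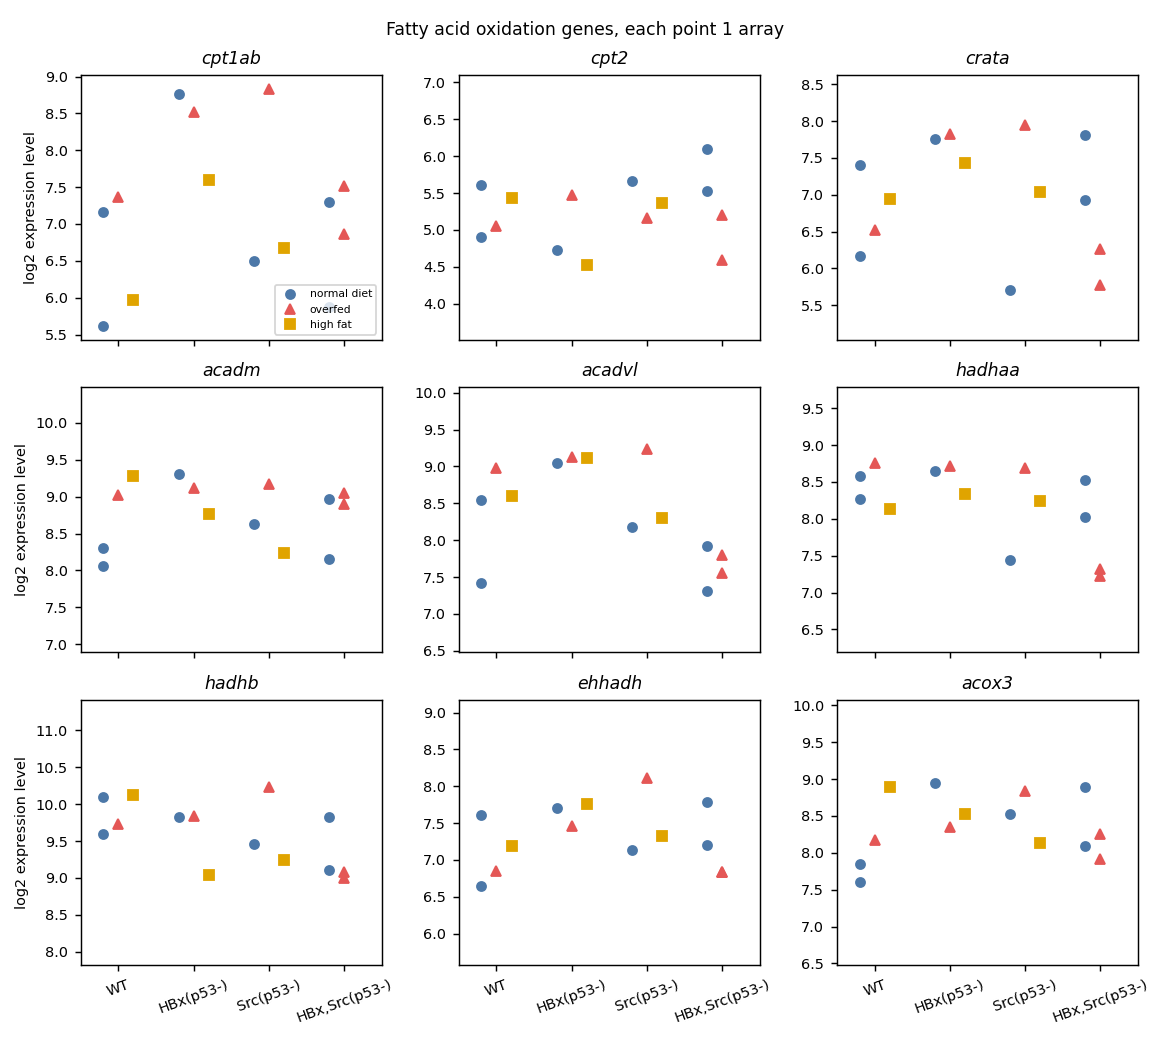
Log2 expression level (y axis, spanning the same height in every panel) of each of the 9 genes by genotype (x axis), where each point is 1 array and the marker gives the diet (circle, normal; triangle, overfed; square, high fat). The 3 HBx(p53-) arrays of cpt1ab, crata and acadvl all lie above the 4 WT arrays, and crata spans 5.71 to 7.95 within Src(p53-).

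The first dehydrogenation is carried out by acadm and acadvl, the acyl-CoA dehydrogenases for medium and very long chains. The acadm level was 8.30, 8.06, 9.02 and 9.29 in WT, 9.31, 9.12 and 8.76 in HBx(p53-), 8.63, 9.17 and 8.23 in Src(p53-), and 8.15, 8.97, 9.05 and 8.90 in HBx,Src(p53-) (NOR samples first, then DIO, then FAT where present). The 5 DIO arrays, from 4 genotypes, lay within 8.90 to 9.17 (mean 9.06 ± 0.10, SD), whereas the NOR arrays ran from 8.06 to 9.31. The acadvl level was 8.55, 7.42, 8.98 and 8.60 in WT, 9.05, 9.13 and 9.11 in HBx(p53-), 8.17, 9.24 and 8.30 in Src(p53-), and 7.32, 7.92, 7.56 and 7.79 in HBx,Src(p53-). The HBx(p53-) arrays were close together (9.10 ± 0.04, SD, n = 3) and above all WT arrays, and the HBx,Src(p53-) arrays (7.65 ± 0.27, SD, n = 4) lay below all HBx(p53-) and all Src(p53-) arrays. The share of all genes with HBx,Src(p53-) arrays below all Src(p53-) arrays was not counted.

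The trifunctional protein, which completes the cycle for long chains, has its alpha subunit encoded by hadhaa and its beta subunit by hadhb. In the RefSeq annotation of assembly GRCz12tu these genes are neighbours, with 0 genes starting between them. The hadhaa level was 8.58, 8.27, 8.75 and 8.14 in WT, 8.64, 8.72 and 8.33 in HBx(p53-), 7.44, 8.69 and 8.24 in Src(p53-), and 8.02 and 8.53 in NOR against 7.22 and 7.32 in DIO of HBx,Src(p53-). The hadhb level was 10.09, 9.60, 9.74 and 10.12 in WT, 9.83, 9.85 and 9.04 in HBx(p53-), 9.46, 10.23 and 9.24 in Src(p53-), and 9.11 and 9.83 in NOR against 9.005 and 9.08 in DIO of HBx,Src(p53-). For both subunits the 2 DIO arrays of HBx,Src(p53-) lay below the 2 NOR arrays, by a wide margin for hadhaa and by a narrow one for hadhb. A paralog of the alpha subunit, hadhab, had its own probe set, and RNA of such close copies can bind the same probes, so the values of hadhaa are less certain than those of a single-copy gene.

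In the peroxisome, acox3 encodes an acyl-CoA oxidase that begins the cycle, and ehhadh encodes the bifunctional enzyme of its middle steps. The acox3 level was 7.85, 7.61, 8.17 and 8.90 in WT, 8.95, 8.35 and 8.53 in HBx(p53-), 8.52, 8.84 and 8.14 in Src(p53-), and 8.09, 8.90, 8.26 and 7.91 in HBx,Src(p53-). The WT NOR arrays were the lowest of all 14, by a narrow gap (7.85 in sample 1 against 7.91 in HBx,Src(p53-) DIO sample 2). The share of all genes with both WT NOR arrays lowest was not counted. The ehhadh level ran from 6.64 to 7.61 in WT, from 7.46 to 7.75 in HBx(p53-), from 6.83 to 7.78 in HBx,Src(p53-) and from 7.14 to 8.11 in the Src(p53-) line, with the overfed Src(p53-) array again at the top. Neither gene separated the genotypes.

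Of the 36 pairs of the 9 genes, 31 had a Pearson correlation above 0 over the 14 arrays, with a median of 0.47. The gene cpt2 was set apart after these values were seen, so the values without it are partly fixed by that choice. Among the 28 pairs without cpt2, every Pearson correlation over the 14 arrays was above 0, from 0.12 to 0.87 with a median of 0.55, and the highest were crata with ehhadh (0.87) and crata with hadhaa (0.80). The subunits hadhaa and hadhb correlated at 0.67. The 8 pairs with cpt2 ran from -0.43 to 0.21. These correlations are descriptions over 14 arrays that share the normalization and include replicates and genotypes. Pairs of other genes of like level were not counted. The mean of the 9 genes, each centred on its own mean, summarised the arrays. It was 0.53, 0.49 and 0.12 in HBx(p53-) NOR, DIO and FAT, and 0.69 in Src(p53-) DIO, the highest array, against -0.31 in Src(p53-) NOR and -0.16 in Src(p53-) FAT. It was 0.05 and -0.56 in the WT NOR samples, 0.05 in WT DIO and 0.06 in WT FAT. For HBx,Src(p53-) it was -0.42 and 0.35 in NOR and -0.47 and -0.42 in DIO.

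**Figure D2:**
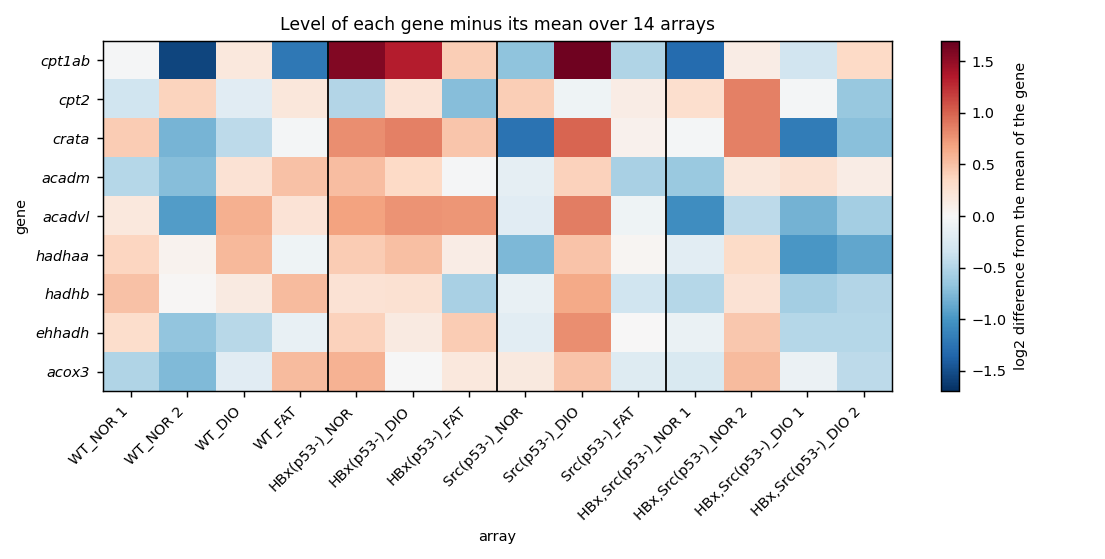
Log2 level of each gene (rows) minus its mean over the 14 arrays (colour scale, log2 units), with arrays as columns grouped by genotype and the lines marking the genotype borders. The overfed Src(p53-) column is positive for all genes but cpt2, and the column of HBx,Src(p53-) NOR sample 2 is positive for all but acadvl.

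Samples of one group also differed from each other. In HBx,Src(p53-) NOR, sample 2 was above sample 1 in all 9 genes, by a median of 0.72 (lowest 0.51, highest 1.42), although 51.3% of all genes were higher in sample 2. In WT NOR, sample 2 was above sample 1 in 1 of 9, cpt2, with a median difference of -0.49. In HBx,Src(p53-) DIO, sample 2 was above sample 1 in 5 of 9 with a median of 0.08. Germ cell markers also differed between the HBx,Src(p53-) NOR samples, with a mean level of 3.48 in sample 1 and 2.06 in sample 2, and their part in the result was not tested.

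The effect of an obesity diet, with overfed and high fat pooled as in the study, was first asked in WT. Of the 9 genes, 6 were higher and 3 lower, with a median change of +0.08, against 51.9% of all genes higher and a median over all genes of +0.02. The share of all genes called was 0%, and 4.34% had an unadjusted p under 0.05, as 1 member did. That member was acadm, at +0.97 ± 0.37 (1.96-fold, adjusted p = 0.999, limma), and acox3 was at +0.80 ± 0.37. The obesity diet arrays of acadm, acadvl and acox3 all lay above both NOR arrays, as did those of 15.6% of all genes. The median rested on which NOR array was kept. It was +0.56 (8 higher, 1 lower) without WT NOR sample 1 and -0.13 (4 higher, 5 lower) without sample 2.

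In HBx(p53-) the same comparison gave 2 genes higher and 7 lower, with a median of -0.12, where 51.1% of all genes were higher. No member had an unadjusted p under 0.05, against 3.74% of all genes, and the share called was 0%. The members with the largest moderated t were acox3 (-0.51 ± 0.46) and acadm (-0.37 ± 0.45), both with an adjusted p of 1. By feeding method the median was +0.02 in DIO and -0.32 in FAT, and without the FAT array 5 genes were higher and 4 lower.

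In Src(p53-) 7 genes were higher and 2 lower, with a median of +0.58, where 51.9% of all genes were higher. The share called was 0%, and 3 members were at least 2-fold higher, beside 4.11% of all genes, a share not matched by level. The change of crata was +1.78 ± 0.60 (3.44-fold, adjusted p = 0.896) and that of hadhaa was +1.02 ± 0.38 (2.03-fold, adjusted p = 0.95), and cpt1ab was at +1.26 ± 1.03. By the rule of fold and p that the methods give for the array software (a fold past 2 with an unadjusted p under 0.05), 2 members and 3.38% of all genes counted. The overfed array carried most of this. In DIO against NOR 8 of 9 genes were higher with a median of +0.97, where 50.5% of all genes were higher, and in FAT against NOR 5 of 9 with a median of +0.12. Both rest on the single Src(p53-) NOR array. Exocrine pancreas markers moved with this comparison. All 14 were higher, by a median of +1.37, with mean levels of 4.47 in NOR, 6.02 in DIO and 5.53 in FAT, and their part in the result was not tested.

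In HBx,Src(p53-), where the obesity diet was overfeeding alone, 3 genes were higher and 6 lower, with a median of -0.42 against -0.05 over all genes and 44.9% of all genes higher. The share of all genes called was 0.0142%, none of them a member. Those with an unadjusted p under 0.05 were hadhaa (-1.004 ± 0.31, adjusted p = 0.31), crata (-1.36 ± 0.49, adjusted p = 0.36) and cpt2 (-0.92 ± 0.40, adjusted p = 0.463), against 10.7% of all genes. By the same rule of fold and p 2 members counted, hadhaa and crata, beside 6.42% of all genes. Both DIO arrays lay below both NOR arrays for cpt2, crata, hadhaa, hadhb and ehhadh, as they did for 24.7% of all genes. NOR sample 2 set the size of this difference, and the median was -0.06 without it and -0.81 without NOR sample 1. Exocrine pancreas markers were higher in 13 of 14 with a median of +0.87, from mean levels of 5.98 and 6.37 in NOR to 7.19 and 6.63 in DIO, and their part in the result was not tested.

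**Figure D3:**
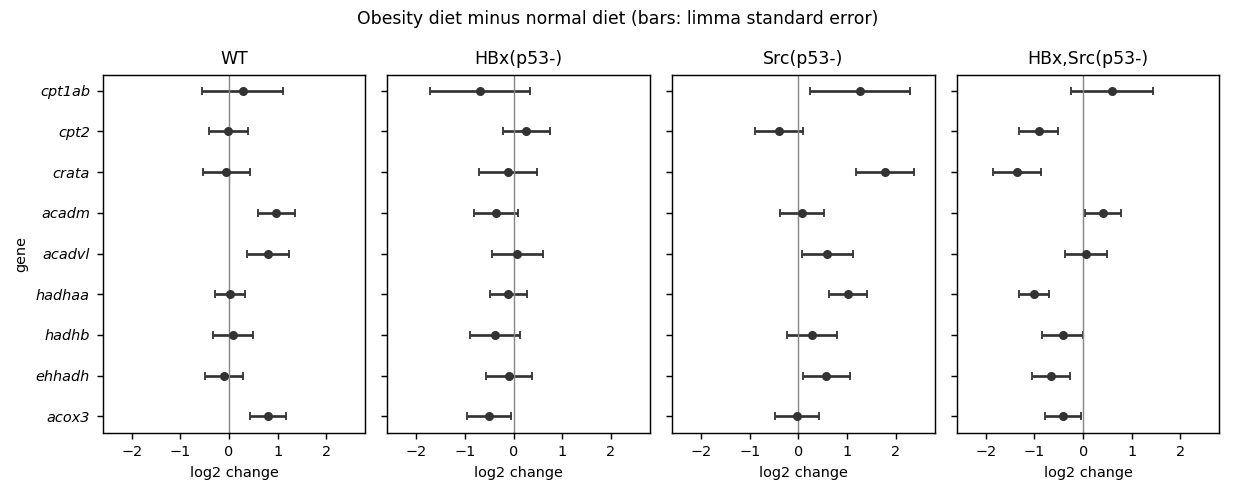
Log2 change from normal to obesity diet (x axis) of each of the 9 genes (y axis) in each genotype, where points are limma estimates and bars are 1 standard error. In Src(p53-) crata and hadhaa lie at +1.78 and +1.02, and in HBx,Src(p53-) at -1.36 and -1.004.

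The opposite direction of crata and hadhaa in the lines that carry Src was tested as a difference, in a comparison added after these values had been seen. The diet change in Src(p53-) minus that in HBx,Src(p53-) was +3.14 ± 0.77 for crata and +2.02 ± 0.49 for hadhaa, and the adjusted p was 0.744 for both (limma), so neither passed. The Src(p53-) change pooled DIO and FAT, whereas that of HBx,Src(p53-) was DIO alone, so line and feeding method are mixed in this difference. Over the 9 genes 8 differences were positive with a median of +0.66, where 54.9% of all genes were positive, and the share called was 0%. The median was +0.21 without the overfed Src(p53-) array and +0.23 without HBx,Src(p53-) NOR sample 2, but +1.20 without the high fat Src(p53-) array and +1.06 without HBx,Src(p53-) NOR sample 1. The Src-carrying lines as a pair against WT and HBx(p53-) averaged these opposite changes, with feeding methods mixed in the same way. In that comparison 5 genes were higher and 4 lower with a median of +0.06, beside 47.1% of all genes higher and 0% called. That split turned with the array left out. It was 1 higher and 8 lower without WT NOR sample 1, 2 and 7 without Src(p53-) DIO or HBx,Src(p53-) NOR sample 1, 3 and 6 without WT DIO or HBx(p53-) FAT, and 7 and 2 without HBx,Src(p53-) NOR sample 2 or Src(p53-) FAT. Exocrine pancreas markers were higher in 14 of 14 in this comparison, by a median of +0.75, and their part in the result was not tested. The largest by moderated t were cpt2 at -0.78 ± 0.45 (adjusted p = 0.736) and cpt1ab at +1.14 ± 0.94 (adjusted p = 0.825). The cpt1ab value was 0.60 without the overfed Src(p53-) array, and without sample 1 it was 0.75 (WT NOR) or 0.78 (HBx,Src(p53-) NOR).

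When the feeding methods were separated with genotype as a term, overfeeding gave 3 genes higher and 6 lower than normal diet, beside 46.4% of all genes higher and 0% called. With arrays centred on their medians the split was 4 higher and 5 lower. It was 7 higher and 2 lower (median +0.15) without HBx,Src(p53-) NOR sample 2, and 6 and 3 without either DIO array of that line, so no direction can be given for overfeeding. The cpt1ab level was +0.86 ± 0.39 (adjusted p = 0.794) and acadvl was +0.50 ± 0.25 (adjusted p = 0.794). No member had all DIO arrays above or below all NOR arrays. Exocrine pancreas markers were higher in 11 of 14, by a median of +0.41. High fat food gave 3 higher and 6 lower, beside 50.4% of all genes higher and 0% called, with cpt1ab at -0.54 ± 0.47 and hadhb at -0.34 ± 0.29 (adjusted p = 1 for both). With only the NOR and FAT arrays the split was 6 higher and 3 lower, and leaving out single arrays gave from 1 higher and 8 lower (without WT FAT or WT NOR sample 2) to 5 and 4 (without WT NOR sample 1, Src(p53-) DIO or HBx,Src(p53-) NOR sample 2), so no direction can be given for high fat food. Exocrine pancreas markers were higher in 14 of 14 under high fat food, by a median of +1.07, and the part of these markers in either result was not tested.

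Genotype under normal diet was compared next. In HBx(p53-) against WT 7 genes were higher and 2 lower, with a median of +0.97 against -0.02 over all genes, where 48.1% of all genes were higher. The share called was 0%. Of the 9, 4 were at least 2-fold higher, beside 5.32% of all genes, a share not matched by level. The difference was +2.37 ± 1.03 for cpt1ab (5.15-fold, adjusted p = 0.812), +1.22 ± 0.46 for acox3 (2.33-fold, adjusted p = 0.712) and +1.13 ± 0.45 for acadm (2.19-fold, adjusted p = 0.75). The other gene past 2-fold, acadvl, was at +1.07 ± 0.53. By the rule of fold and p 3 members and 4.27% of all genes counted. The HBx(p53-) group under normal diet was 1 array, and the median was +0.35 without WT NOR sample 2 and +1.25 without sample 1. Exocrine pancreas markers were higher in 14 of 14, by a median of +2.74, and their part in the result was not tested.

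A comparison over all diets in an additive model, added after the data had been seen, used all HBx(p53-) and WT arrays. In it cpt1ab was +1.73 ± 0.49 in HBx(p53-) (3.33-fold, adjusted p = 0.493) and acadvl was +0.65 ± 0.32 (adjusted p = 0.869). The differences of acadm and acox3 were smaller than under normal diet alone, at +0.34 ± 0.32 and +0.47 ± 0.34. Again 7 genes were higher, beside 48.2% of all genes, and 0.0663% of all genes were called, none of them a member. By the rule of fold and p 1 member, cpt1ab, counted, beside 1.9% of all genes. All HBx(p53-) arrays lay above all WT arrays for cpt1ab, crata and acadvl, 3 of 9, as for 3.54% of all genes.

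**Figure D4:**
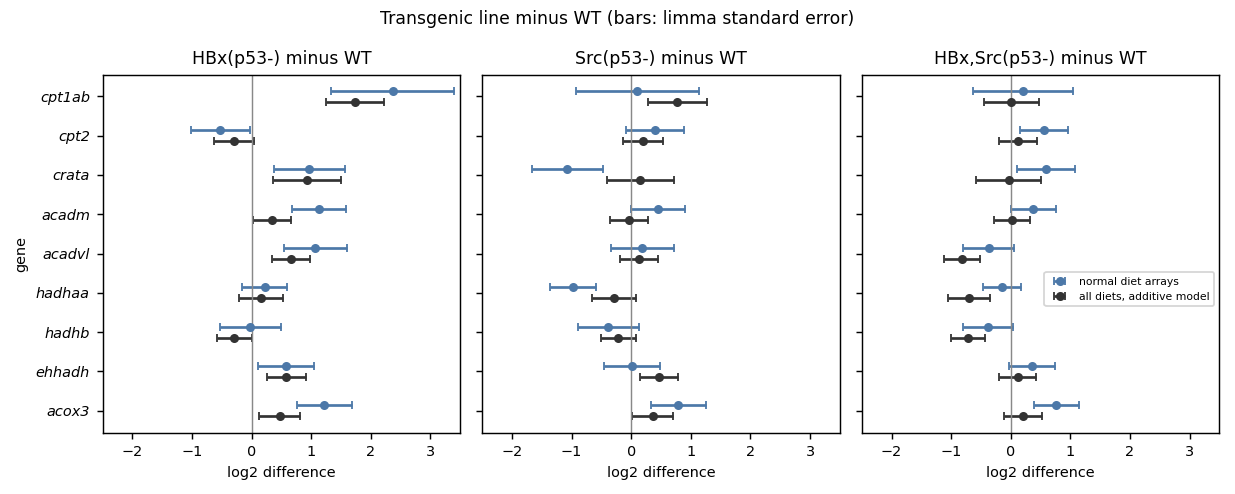
Log2 difference of each transgenic line from WT (x axis) for each gene (y axis), under normal diet (blue) and over all diets in an additive model (dark), where points are limma estimates and bars are 1 standard error. In HBx(p53-) cpt1ab lies at +2.37 under normal diet and +1.73 over all diets, and in HBx,Src(p53-) acadvl and hadhb lie at -0.82 and -0.71 over all diets.

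Src(p53-) differed from WT under normal diet in both directions, with 6 genes higher and 3 lower and a median of +0.10, beside 50.1% of all genes higher. With arrays centred on their medians the split was 5 and 4. Without WT NOR sample 2 it was 3 higher and 6 lower with a median of -0.47, and without sample 1 the median was +0.50. The share called was 0.00947%, with no member among them. The hadhaa level was -0.98 ± 0.38 (adjusted p = 0.84) and crata was -1.07 ± 0.60 (adjusted p = 0.905), the latter at -0.46 without WT NOR sample 1. Over all diets the largest by moderated t were cpt1ab (+0.78 ± 0.49) and ehhadh (+0.47 ± 0.32), and crata was at +0.15 ± 0.57, with the opposite sign to that under normal diet. There 6 genes were higher, beside 50.2% of all genes, and 0.0331% were called. Without the overfed Src(p53-) array cpt1ab was at 0.31 and ehhadh at 0.04, and the split was 4 higher and 5 lower, as it was without WT NOR sample 2. Leukocyte markers averaged 4.01 to 4.39 on the Src(p53-) arrays beside 3.34 to 3.88 in WT, with 8 of 10 higher under normal diet (median +0.53) and 9 of 10 over all diets, and their part in these results was not tested.

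HBx,Src(p53-) under normal diet had 6 genes higher than WT and 3 lower, with a median of +0.36 against +0.06 over all genes, beside 56.5% of all genes higher and 0.00947% called. The median was +0.16 with arrays centred on their medians. Without WT NOR sample 2 it was -0.12 (3 higher, 6 lower) and without WT NOR sample 1 +0.50 (8 higher, 1 lower). It was -0.03 (4 higher, 5 lower) without HBx,Src(p53-) NOR sample 2 and +0.79 (7 higher, 2 lower) without sample 1, so no direction can be given. The largest by moderated t were acox3 at +0.76 ± 0.37 (adjusted p = 0.626) and cpt2 at +0.55 ± 0.40 (adjusted p = 0.759). The acox3 difference was +0.36 without HBx,Src(p53-) NOR sample 2 and +1.17 without sample 1. Over all diets acadvl was at -0.82 ± 0.30 (adjusted p = 0.297) and hadhb at -0.71 ± 0.29 (adjusted p = 0.344), while 0.497% of all genes were called. In that model 5 members were higher and 4 lower, beside 53% of all genes higher, and 1 higher and 8 lower with arrays centred on their medians, where acadvl and hadhb stood at -0.98 and -0.88. Without HBx,Src(p53-) NOR sample 2 all 9 were lower, with a median of -0.34, and without WT NOR sample 2 the split was 2 higher and 7 lower. Against HBx(p53-), all HBx,Src(p53-) arrays lay below for cpt1ab and acadvl, 2 of 9, as for 4.35% of all genes. Exocrine pancreas markers were higher than in WT under normal diet in 13 of 14, by a median of +1.50. Leukocyte markers averaged 4.29 to 4.69 in HBx,Src(p53-) beside 3.34 to 3.88 on the WT arrays. Germ cell markers averaged 2.06 to 3.48 beside 1.72 to 2.42 in WT, and over all diets 10 of 14 were higher, by a median of +0.58. The part of these markers in the results was not tested.

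The wider pathway was described through 80 measured genes of 90 listed. They were 16 genes of uptake, activation and the carnitine shuttle, 21 of mitochondrial beta-oxidation, 17 of peroxisomal oxidation, 3 of ketone body metabolism and 23 regulators. None passed the test in any comparison. The other carnitine palmitoyltransferases did not move as one. The level of cpt1b, the muscle form in mammals, had a range of 2.90 (WT FAT) to 10.22 (HBx(p53-) NOR) and was +2.89 ± 1.04 in HBx(p53-) against WT over all diets (adjusted p = 0.672). The level of cpt1aa stayed between 7.72 and 9.27, and at +0.12 ± 0.37 in that comparison. Cross-binding between these paralogs and cpt1ab was not tested.

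Under overfeeding in HBx,Src(p53-), 14 of the 21 mitochondrial genes and 12 of the 17 peroxisomal genes were lower, with medians of -0.14 and -0.30, where 44.9% of all genes were higher. NOR sample 2 set most of this. The mean of the centred mitochondrial genes was -0.09 and 0.35 in NOR samples 1 and 2, and -0.12 and -0.19 in DIO. For the peroxisomal genes it was -0.06 and 0.36 in NOR, and -0.0004 and -0.12 in DIO. The alpha subunit paralog hadhab was at -1.17 ± 0.36 (adjusted p = 0.31), and hadh, the short-chain 3-hydroxyacyl-CoA dehydrogenase, was at -1.58 ± 0.47 (adjusted p = 0.281). The hadh level was 7.25 and 8.49 in NOR and 6.20 and 6.39 in DIO, the 2 lowest of the 14 arrays. The share of all genes with these DIO arrays lowest was not counted. Also lower were acsl5, a long-chain acyl-CoA synthetase (-2.2 ± 0.76), and pparaa, a PPAR alpha (-1.44 ± 0.46). Of opposite sign were etfb, which passes electrons on from the acyl-CoA dehydrogenases (+0.85 ± 0.29), and pex7, an import receptor of peroxisomes (+1.28 ± 0.36). The regulators as a list did not follow pparaa. Of the 23, 13 were higher and 10 lower, with a median of +0.17. Among these, 6 were at least 2-fold higher and 2 at least 2-fold lower.

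In Src(p53-) under an obesity diet 18 of the 23 regulators were higher, with a median of +0.90, and 11 were at least 2-fold higher, where 4.11% of all genes were. Among them were foxo1a, a transcription factor of the fasting response (+4.69 ± 1.22, adjusted p = 0.775), hnf4a, a hepatocyte transcription factor (+1.37 ± 0.42), esrra, an oestrogen-related receptor (+2.42 ± 0.76), and ppargc1a, a coactivator of mitochondrial genes (+3.00 ± 1.15). The foxo1a level was 4.19 in Src(p53-) NOR, the lowest of all arrays, 9.13 in DIO and 8.61 in FAT. Every change in this comparison rests on the single Src(p53-) NOR array. The HBx,Src(p53-) NOR samples also differed, at 7.12 and 5.57 (foxo1a), 9.12 and 8.05 (hnf4a), 7.22 and 5.52 (esrra) and 6.86 and 4.12 (ppargc1a). The WT NOR samples differed widely in foxo1a (8.93 and 5.57) and ppargc1a (8.70 and 6.17). They differed less in hnf4a (8.39 and 8.83) and esrra (6.93 and 6.95). The carnitine-acylcarnitine carrier slc25a20 was at +0.83 ± 0.35, and acacb, the acetyl-CoA carboxylase whose malonyl-CoA inhibits carnitine palmitoyltransferase 1, was at +2.86 ± 1.19. Of the mitochondrial genes 15 of 21 were higher with a median of +0.18, and of the peroxisomal genes 7 of 17 with a median of -0.10.

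Under normal diet HBx(p53-) had 15 of 21 mitochondrial genes and 13 of 17 peroxisomal genes higher than WT. Their medians were +0.30 and +0.40, where 48.1% of all genes were higher. Src(p53-) had 17 of 21 (+0.48) and 13 of 17 (+0.63) higher, beside 50.1% of all genes. HBx,Src(p53-) had 18 of 21 (+0.31) and 15 of 17 (+0.55) higher, beside 56.5%. In WT under an obesity diet 18 of 21 (+0.29) and 13 of 17 (+0.33) were higher than in WT NOR, beside 51.9%. The shift was therefore not particular to HBx(p53-), and all of these comparisons share the WT NOR arrays. In HBx(p53-) against WT under normal diet the sterol carrier scp2a, which also has a thiolase form in peroxisomes, was at +1.12 ± 0.27 (adjusted p = 0.439). In the same comparison ech1, an enoyl-CoA isomerase, was at +1.86 ± 0.60, pex7 at +1.47 ± 0.44 and ppardb, a PPAR delta, at +1.83 ± 0.34 (adjusted p = 0.282). In WT under an obesity diet ppardb was at +1.58 ± 0.28 and ech1 at +1.50 ± 0.49, both with an adjusted p of 0.999. This comparison and that of HBx(p53-) with WT share the WT NOR arrays, where the ech1 level was 6.04 in sample 1 and 4.21 in sample 2 and the ppardb level was 5.58 and 5.27.

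**Figure D5:**
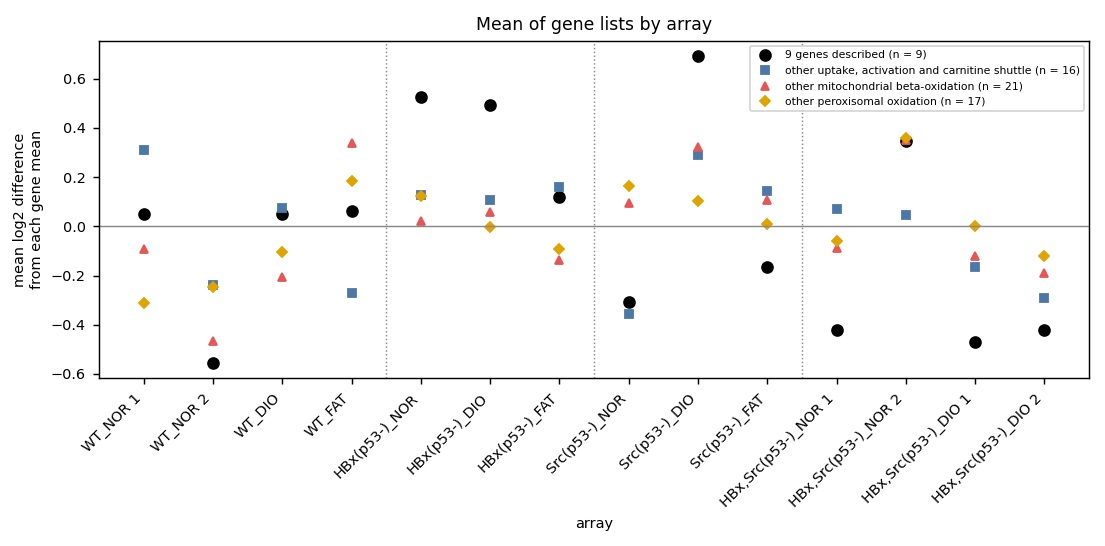
Mean over the genes of a list of the log2 level minus each gene's own mean (y axis) on each array (x axis), for the 9 genes described and 3 lists of other pathway genes, with n the number of genes. The 9 genes range from -0.56 (WT NOR sample 2) to 0.69 (Src(p53-) DIO).

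Likeness to the 9 genes was measured as the Pearson correlation of each other gene with their centred mean over the 14 arrays, as a description. Of the 21 mitochondrial genes 17 correlated above 0 (median 0.36), as did 13 of the 17 peroxisomal genes (median 0.35). So did 18 of the 23 regulators (median 0.22) and 2 of the 3 ketone body genes (median 0.25). Of the 16 genes of uptake and the carnitine shuttle 8 did (median 0.03), beside 49.5% of the 21116 genes outside the 9. The highest pathway genes were etfdh (0.83), which hands electrons from fatty acid oxidation to the respiratory chain, acaa2 (0.82), a mitochondrial thiolase, and pdk4 (0.76), a kinase that inhibits pyruvate dehydrogenase. Among all genes the 5 highest were pak5 (0.91), hsdl2 (0.89), pik3c2a (0.88), pard3ab (0.86) and ptpn13 (0.85), of which pak5 was dim, at 1.69 to 2.94. The 3 lowest were derl1 (-0.90), a protein of endoplasmic reticulum protein disposal, orc1 (-0.87), a subunit of the origin recognition complex, and gpam (-0.83), the mitochondrial acyltransferase that begins glycerolipid synthesis. The gpam level was 9.10 in WT NOR sample 2 and 8.47 in HBx,Src(p53-) NOR sample 1, the 2 highest, and 6.22 in WT NOR sample 1 and 6.28 in Src(p53-) DIO, the 2 lowest.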

How the data were processed

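The deposited values were log2 expression levels per probe set, which the authors made, per the labels, with the robust multi-array average (RMA) of the oligo package: background correction, quantile normalization over all arrays and a summary per probe set. Their versions are not given in the sources used here. Quantile normalization gives all arrays nearly one distribution, so a change in total RNA is not visible, and differences of dim probe sets are shrunk.

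Of 75212 probe sets, 30358 had 1 gene symbol in the platform annotation, 1015 had several and 43839 had none. Symbols of 19501 genes matched RefSeq (GRCz12tu) and 1624 kept the annotation's symbol. Of the 21125 genes, 6365 had several probe sets. As no source names the genome build of the probe sets, no coordinates are printed, and no probe, promoter or protein sequence was used here.

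Comparisons within a genotype and under normal diet came from 8 cell means (6 residual degrees of freedom), and those of feeding methods and over all diets from an additive model of genotype and diet (8), each fitted to all 14 arrays with limma 3.58.1 in R 4.3.3 (two-sided, with calls at 0.05 after Benjamini-Hochberg adjustment over all genes). The script was tested on simulated data. Errors after ± are standard errors unless SD is stated. Lone arrays were assumed to vary like the others. In the model of 8 cell means, the obesity diet cell of WT, HBx(p53-) or Src(p53-) held a DIO and a FAT array. The spread behind the standard errors and p-values of that model therefore includes the difference between these feeding methods. The additive model takes a diet change to be equal in all genotypes. Its spread therefore includes any difference in diet change between genotypes. The labels do not say whether samples were single fish. The study's notes to its supplementary figures count 14 fish for the microarray, which makes each array a single fish. The p-values then rest on the spread between these fish together with the differences just named, and the number of fish limits the precision. Scan dates were not given, and no batch was tested.

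The members and gene lists were chosen with earlier results of these data known. By the rule for named genes, all 9 were given on every array, changes were given for those with an unadjusted p under 0.05 (or the 2 with the largest moderated t), and up to 6 other pathway genes with an unadjusted p under 0.05 could be named in each comparison. Those named outside it (acadvl, cpt1ab, crata, acadm, acox3, cpt1aa and others given as levels) were chosen after their values were seen. Alternatives tried were the mean of all probe sets of a gene, arrays centred on their medians, a filter at a mean of 4, other models, a rule of fold and p from the methods, a replicate block and leaving out each array.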

Additional observations from a re-analysis of the deposited data

Results flagged for a closer look

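Groups of 4 to 6 arrays were searched for a sample that stood apart from the others of its genotype or diet, and 2 of the 36 groups tested had one. Chance gives one in about 1 in 20 groups. In HBx,Src(p53-), the acadm level of 8.15 in NOR sample 1 stood below the other 3 arrays by a gap that was 0.838 of the whole range. In the same genotype, the hadhb level of 9.83 in NOR sample 2 stood above the other 3 arrays by a gap of 0.876 of the range.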

How the results depend on the processing

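The 286 alternatives run for the counts of called members included the rule of fold and p. No member was called under any of those that used the adjusted p over all genes. By the rule of fold and p that the methods give for the array software, the members counted were 2 for the obesity diet in Src(p53-) (3.38% of all genes), 2 for it in HBx,Src(p53-) (6.42%), 3 for HBx(p53-) against WT under normal diet (4.27%) and 1 for that comparison over all diets (1.9%). By fold alone, in either direction, they were 3 (8.37% of all genes), 2 (9.91%), 4 (9.31%) and 1 (2.85%). Of the 30 named changes, 29 kept their direction under every alternative that could be fitted. The crata difference in Src(p53-) against WT turned from -1.07 under normal diet to +0.153 in the additive model. It was -0.46 without WT NOR sample 1. The filter at a mean of 4 and a changed moderation of the spread leave estimates as they are, so neither could turn a direction. Comparisons resting on the only NOR array of HBx(p53-) or Src(p53-) could not be fitted without it. Most named changes were also chosen for a low p or a large moderated t, so this count is weak evidence of stability. The replicate block called 0 members, and over all genes it raised the number called for the obesity diet in HBx,Src(p53-) from 3 to 6. The correlations of deviations between equal sample numbers were -0.03, -0.23 and 0.13. These values cannot settle whether equal numbers mark paired samples, and the labels do not say. The limit on these results is the number of arrays, since 8 of 11 groups held 1.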

Other observations

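Of the long-chain acyl-CoA synthetases, which activate fatty acids before oxidation or esterification, acsl4a and acsl1a had negative differences from WT in all 3 transgenic lines. The acsl4a level was 9.16 and 9.87 in WT NOR, 9.65 in DIO and 9.69 in FAT. The 10 arrays of the transgenic lines ran from 8.35 to 9.11. The gap between the lines and WT in acsl4a was narrow (9.11 against 9.16). The share of all genes with such a gap was not counted, so the gap is not read as a result. Over all diets the difference from WT was -1.02 ± 0.22 in HBx(p53-) (limma, adjusted p = 0.232), -0.74 ± 0.22 in Src(p53-) (adjusted p = 0.678) and -0.98 ± 0.21 in HBx,Src(p53-) (adjusted p = 0.073), and these comparisons share the WT arrays. The dimmer acsl1a was at -1.30 ± 0.36, -1.14 ± 0.36 and -1.20 ± 0.34 in the same comparisons, and none of these passed the test. The acsl1a level was 3.62 to 4.61 in WT and 2.33 to 3.86 in the lines, an overlap through the overfed Src(p53-) array. The other measured synthetases also overlapped between WT and the lines, with acsl1b at 8.10 to 8.79 in WT and 7.26 to 9.07 in the lines, acsl5 at 5.68 to 7.11 and 4.54 to 8.04, and acsl6 at 1.21 to 1.39 and 1.28 to 1.87.

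Ketone body metabolism was represented by 3 measured genes of 6 listed. The level of bdh1, a hydroxybutyrate dehydrogenase, ran from 5.87 to 8.01, and under high fat food it was +0.66 ± 0.30 with genotype as a term (adjusted p = 1). The level of oxct1b, a ketone-using CoA transferase, was 8.78 to 9.80. The second probe sets of acadm and ehhadh correlated with the ones used at 0.89 and 0.72 over the 14 arrays. Within HBx(p53-) (NOR, DIO, FAT) they did not follow them. There ehhadh was 7.70, 7.46 and 7.75 on the set used and 5.50, 4.73 and 3.70 on the other. For acadm the values were 9.31, 9.12 and 8.76 on the set used and 6.71, 6.78 and 6.84 on the other.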
